A study of Mus musculus with 12 samples.

Results

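The dual-specificity MAP kinase phosphatase genes Dusp1, Dusp2, Dusp4, Dusp5, Dusp6, Dusp7, Dusp10 and Dusp16 were followed through an ATAC-seq experiment on mouse granulocyte-monocyte progenitors that carry ER-HOXA9. ATAC-seq reads open chromatin from where a transposase inserts adapters. Their regions were chosen by listing: all those that the authors' deposited comparison tables give under one of the 8 symbols at an FDR of 0.05 or less, together with every called peak within 10 kb of the gene body on the mm10 build. This gave 39 regions, out of 73147 regions joined from the peak lists of all libraries, at 8 of 21900 protein-coding genes. The folds and FDRs of Vehicle against Day0 and of LSD1i, CER and Combo against Vehicle thus selected part of the regions, so values of these comparisons are given as a description, without a test.

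The phosphatases of this family remove phosphate from both the threonine and the tyrosine in the activation loop of MAP kinases and thereby end ERK, JNK or p38 signals. Dusp1, Dusp2, Dusp4 and Dusp5 encode nuclear enzymes that growth factors and stress induce, and Dusp5 acts mainly on ERK. Dusp6 and Dusp7 encode cytoplasmic phosphatases that prefer ERK, and Dusp10 and Dusp16 encode enzymes that act mainly on JNK and p38. In myeloid progenitors, cytokine receptors such as that of stem cell factor, which these cells were grown in, signal through the ERK pathway.

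The 12 libraries form 6 groups of 2 biological replicates from C57BL6 bone marrow cells, and all cells, Day0 included, carry ER-HOXA9 and were grown with beta-estradiol, the ligand of the estrogen receptor. Combo cells received 200 nM GSK-LSD1, 5 uM mercaptopurine and 5 uM cerulenin together for 2 days. LSD1i cells received 200 nM GSK-LSD1, which blocks the lysine demethylase LSD1, CER cells 5 uM cerulenin, which blocks fatty acid synthase, and 6MP cells 5 uM of the purine analogue mercaptopurine, each for 2 days. Vehicle cells received DMSO for 2 days, and Day0 cells were taken untreated at the start. The labels do not say whether the replicates came from separate animals, so the spread between them may be partly technical. The progenitor label was set against marker genes. A called peak covered the start of Mpo, Ctsg, Ms4a3, Cebpa, Cebpe and Csf3r in all 12 libraries. The starts of Elane, Prtn3 and Csf1r had none. The start of Spi1 was open in both Combo, both LSD1i and both CER libraries and in Day0 replicate 1. It was not open in any Vehicle or 6MP library or in Day0 replicate 2. Thus 6 to 7 of 10 progenitor markers were open in each library. The starts of 0 of 4 T and NK cell, 0 to 1 of 4 dendritic cell, 1 of 4 stromal, 1 to 2 of 4 B cell and 2 to 4 of 5 erythroid and megakaryocyte markers were open. Of the last list, Epor and Pf4 were open in all 12 libraries, Itga2b in 11, Gata1 in 5 and Klf1 in 0. Their part in the results was not tested.

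Signal at a region is given as log2 of the fragment pileup at its highest summit over the background of the library, centred on the middle value that the same library has at the 33367 regions with a peak in every library. A value of 0 is thus the typical shared peak. Distances are from the summit to the RefSeq transcription start, negative upstream. In 2 libraries the summits stood less far above background, with a median of 16.9 times in 6MP replicate 1 and 23.0 times in CER replicate 2, against 28.3 to 42.7 times in the other 10.

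The promoters of the family are shown first, since all 8 were open in every library. The promoter regions of Dusp2, Dusp10 and Dusp16 also cover the starts of Gm46762, 1700056E22Rik and 1700055D16Rik, in that order. Their signal therefore cannot be assigned to the Dusp gene alone. The RefSeq promoter table matched 7 of the 8 genes. The stretch of 250 bases before the start is printed 5′ to 3′ on the strand of the gene (RefSeq, GRCm38.p6) for Dusp1, Dusp2, Dusp5 and Dusp16. These hold the cyclic AMP response element (CRE, TGACGTCA), its shorter core TGACG, the ETS motif GGAAGT or the E box CACGTG, which are in capitals in either orientation. The Dusp1 stretch is chr17:26508473-26508722 on the minus strand, that of Dusp2 chr2:127335909-127336158 on the plus strand, that of Dusp5 chr19:53528895-53529144 on the plus strand and that of Dusp16 chr6:134792629-134792878 on the minus strand.
Dusp1: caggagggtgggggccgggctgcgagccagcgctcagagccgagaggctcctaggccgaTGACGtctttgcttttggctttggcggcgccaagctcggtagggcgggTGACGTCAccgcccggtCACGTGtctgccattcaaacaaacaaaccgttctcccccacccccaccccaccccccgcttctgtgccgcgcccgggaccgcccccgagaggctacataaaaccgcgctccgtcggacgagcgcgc
Dusp2: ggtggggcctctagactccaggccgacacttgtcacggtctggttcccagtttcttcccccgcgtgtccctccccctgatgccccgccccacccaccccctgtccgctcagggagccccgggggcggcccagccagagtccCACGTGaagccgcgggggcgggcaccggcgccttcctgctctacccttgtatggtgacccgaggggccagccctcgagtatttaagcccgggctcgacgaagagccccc
Dusp5: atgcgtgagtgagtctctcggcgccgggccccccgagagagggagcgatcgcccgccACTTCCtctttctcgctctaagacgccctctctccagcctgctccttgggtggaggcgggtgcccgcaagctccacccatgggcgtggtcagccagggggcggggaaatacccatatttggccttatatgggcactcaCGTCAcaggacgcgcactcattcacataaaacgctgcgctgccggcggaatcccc
Dusp16: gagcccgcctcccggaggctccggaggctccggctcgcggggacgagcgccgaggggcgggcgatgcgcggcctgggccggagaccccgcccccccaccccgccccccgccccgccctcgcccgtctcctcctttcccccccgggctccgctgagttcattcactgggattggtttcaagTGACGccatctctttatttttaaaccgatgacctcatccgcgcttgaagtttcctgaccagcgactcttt

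A full CRE was found, on either strand, in 1 of the 7 promoters, that of Dusp1, at base -143 counted from the start. Among 32851 RefSeq promoters of the same length, 1.55% hold one. The core TGACG was also found at base -55 of Dusp5 and base -70 of Dusp16 (17.8% of promoters hold it), while Dusp1 holds it 3 times, of which 2 overlap in the CRE. An E box stood at base -126 of Dusp1 and base -109 of Dusp2 (6.02% of promoters), and an ETS motif at base -193 of Dusp5 (19.7%). No AP-1 motif (TGANTCA, 6.75%) was found in the 7 stretches. The GC box GGGCGG (32.7%) was found 3 times each in Dusp1 and Dusp2, 5 times in Dusp16, 2 times in Dusp10 and 1 time in Dusp5. The CCAAT box (33.8%) was found 3 times in Dusp10 and 1 time each in Dusp6, Dusp7 and Dusp16. GC content was between 56.4% (Dusp6) and 77.2% (Dusp7), against a median of 52.4% over all promoters. A match of letters is no evidence that a factor binds.

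The promoters of the family were among the more open of the shared regions, which include regions away from promoters. They were not set against the promoters of other genes. Their levels differed among themselves. Averaged over the 12 libraries, promoter signal was 2.59 ± 0.19 (SD) at Dusp5, 2.43 ± 0.22 at Dusp1, 2.40 ± 0.23 at Dusp2 and 2.31 ± 0.17 at Dusp6. It was 2.09 ± 0.21 at Dusp10, 1.98 ± 0.16 at Dusp7, 1.53 ± 0.10 at Dusp4 and 0.93 ± 0.21 at Dusp16. Dusp5, the ERK-directed nuclear phosphatase, thus lay at percentile 99.0 of the shared regions, Dusp4 at 83.3 and Dusp16 at 70.4. In this order, Dusp5, Dusp1, Dusp2 and Dusp6 each lay within 1 SD of the next, as did Dusp10 and Dusp7. Dusp6 stood above Dusp10 and Dusp7 above Dusp4 in all 12 libraries, as did Dusp4 above Dusp16, whereas Dusp5 stood above Dusp1 in 7.

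**Figure D1:**
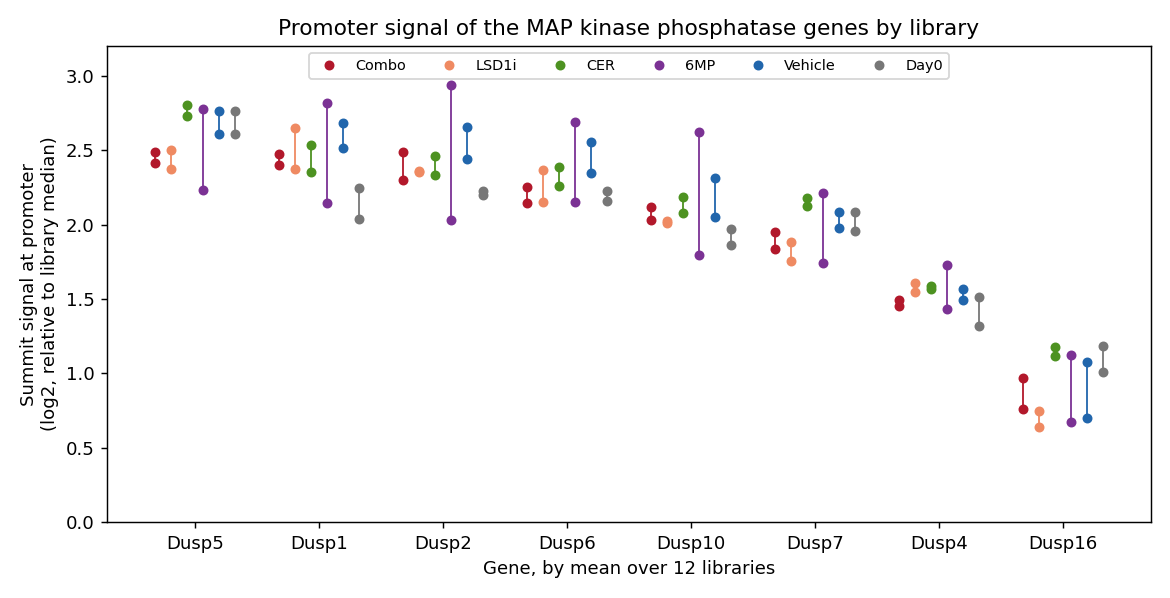
Promoter summit signal (y axis, log2 relative to the library median) of the 8 genes, ordered by their mean over 12 libraries (x axis). Each point is a library, lines join the 2 replicates of a group, and the widest lines belong to 6MP, whose replicates average 1.78 and 2.36 over the 8 promoters.

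The replicates of 6MP differed most. Averaged over the 8 promoters, signal was 1.78 in 6MP replicate 1 and 2.36 in replicate 2, and the other 10 libraries lay at or below 2.15. In such bulk samples, fewer cells with an open region and less opening per cell cannot be told apart. Over all regions of the family, the median absolute difference between replicates was 0.34 in 6MP, 0.23 in Vehicle and 0.15 to 0.17 in the other groups.

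Outside the promoters the loci were less uniform. Of the 39 regions, 22 were called in all 12 libraries, namely the 8 promoters, 6 upstream, 5 gene-body and 3 downstream regions. Another 13 were called in between 2 and 11 libraries and 4 in 1. Dusp5 and Dusp16 held 7 regions each, Dusp2 6, Dusp7 and Dusp10 5, Dusp1 4, Dusp4 3 and Dusp6 2. A called peak was present at 34 and 32 of the 39 regions in Combo, 31 and 33 in LSD1i, 31 and 25 in CER, 28 and 29 in 6MP, 32 and 32 in Vehicle, and 33 and 27 in Day0. These are 64.1% to 87.2% of the family's regions, while the same libraries called 56.9% to 75.5% of all regions.

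Vehicle was set against Day0 to see the effect of 2 days of culture. The authors' deposited table lists 3 regions of the family as opened in Vehicle against Day0 and 0 as closed, where 1.8% of all regions were opened and 0.0677% closed. These shares are of 39873 tested regions, a number inferred from the ranks of the listed p-values and FDRs here and in the later comparisons, since regions past the threshold are not listed. The Dusp1 promoter (log2 fold 0.45 in the authors' deposited table) and a region 5.3 kb downstream of the Dusp1 start (0.48) are 2 of them. The other lies 32.7 kb into Dusp10, in intron 2 of 3 (0.89).

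At the Dusp10 intron region (chr1:184066177-184067429), signal was -1.30 and -0.86 in Vehicle, against -2.10 and -1.87 in Day0. The groups did not overlap, and the Day0 libraries were the lowest of all 12. The Vehicle minus Day0 difference was 0.90 ± 0.24 (SE), while the drug groups had -0.88 and -1.21 in Combo, -0.81 and -0.85 in LSD1i, -1.64 and -1.23 in CER and -1.35 and -1.42 in 6MP.

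Dusp1 encodes the nuclear phosphatase that acts on all 3 MAP kinase classes. Its promoter had a signal of 2.51 and 2.68 in Vehicle, against 2.25 and 2.04 in Day0, a difference of 0.45 ± 0.21 (SE). At the Dusp1 region 5.3 kb downstream, signal was 0.88 and 1.13 in Vehicle, against 0.46 and 0.41 in Day0. Neither region overlapped between the groups, and the difference at the downstream region was 0.57 ± 0.15 (SE).

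Across the family, the 2 Vehicle libraries both exceeded the 2 Day0 libraries at 13 of 27 regions that had a peak in all 4, and both were lower at 2. Over all such regions the shares were 22.7% and 22.9%. The median difference was 0.11 over the family and -0.01 over all regions. Promoters of Dusp2 (0.34 ± 0.22), Dusp6 (0.26 ± 0.19) and Dusp10 (0.27 ± 0.20, SE) were among the 13, while those of Dusp5 and Dusp7 differed by 0.00 ± 0.21 and 0.01 ± 0.17. Both Day0 libraries have names ending in P, which no Vehicle library has, so the suffix and the time point cannot be told apart.

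The second comparison concerns LSD1 inhibition alone. In the authors' deposited table, 16 regions of the family were listed as closed in LSD1i against Vehicle, with at least 1 at each of the 8 genes, and 3 as opened, at 3 genes. Of all 21900 protein-coding genes, 41.7% held a region listed as closed and 6.16% one listed as opened. Of 51629 regions tested (inferred), 34.3% were listed as closed and 6.81% as opened. The median fold of the 16 was -0.43, beside -0.48 over all closed regions in the authors' deposited table. The listed region nearest the FDR threshold of 0.05 was Dusp2 -21.5 kb, at 0.0479 in the authors' deposited table.

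**Figure D2:**
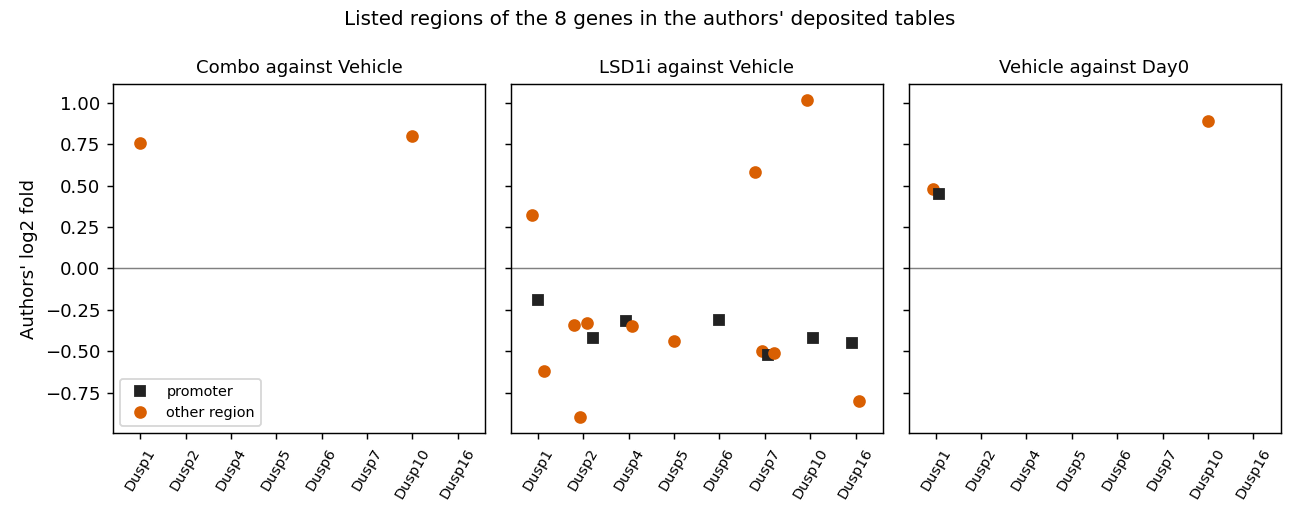
Log2 fold of every region listed for the 8 genes (x axis) in the authors' deposited tables (y axis), with squares for promoters and circles for other regions. Folds in LSD1i run from -0.90 to 1.02, and the 7 listed promoters lie between -0.52 and -0.19.

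Promoters made up 7 of the 16 closed regions. Their folds in the authors' deposited table were -0.19 at Dusp1, -0.42 at Dusp2, -0.32 at Dusp4, -0.31 at Dusp6, -0.52 at Dusp7, -0.42 at Dusp10 and -0.45 at Dusp16, and the Dusp5 promoter was not listed. The FDRs of the 7 in the authors' deposited table ran from 5.19e-12 (Dusp2) to 0.00381 (Dusp1). In the centred summit signal, LSD1i minus Vehicle over all 8 promoters was between -0.25 ± 0.21 (Dusp5) and 0.04 ± 0.15 (Dusp4, SE). These SEs come from the fit on all 12 libraries, which includes the unlike 6MP replicates, and the differences were not tested. Across the family, both LSD1i libraries were higher than both Vehicle libraries at 6 of 28 regions and lower at 12, beside 25.5% and 29.7% of all regions.

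Regions away from the promoters differed more. Dusp16, which acts on JNK and p38, had its largest fold under its own symbol (-0.80 in the authors' deposited table) at a region 3.9 kb before the start, inside the longer RefSeq gene span (chr6:134796360-134796684). Signal there was -0.50 and -0.27 in LSD1i, against 0.44 and 0.15 in Vehicle, with a difference of -0.68 ± 0.16 (SE, 11 libraries). The LSD1i libraries were the lowest of the 11 that had a peak. Combo lay at 0.04 and 0.20, CER at 0.50 and 0.24, 6MP at 0.11 and 0.47, and Day0 replicate 1 at 0.26.

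At Dusp1 -6.4 kb (chr17:26514300-26515200, fold -0.62 in the authors' deposited table), signal was -0.86 and -0.78 in LSD1i, against -0.66 and -0.22 in Vehicle. The difference was -0.37 ± 0.18 (SE). For the cytoplasmic ERK phosphatase Dusp7, a region 7.3 kb upstream (-0.50 in the authors' deposited table) had a signal of -1.21 and -1.51 in LSD1i, against -0.89 and -0.98 in Vehicle.

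Among the remaining genes, the fold in the authors' deposited table was -0.44 at Dusp5 -28.3 kb and -0.35 at Dusp4 +7.8 kb, in exon 2 of 4. In Dusp6 the promoter was the only region listed under its symbol. The region 5.7 kb downstream of Dusp6 was listed under Gm34921 with a fold of -0.31.

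The opened regions were fewer. The largest fold under the 8 symbols in the 4 tables was 1.02, in the authors' deposited table, at Dusp10 -54.4 kb (chr1:183979633-183980410), which that table places at -32892 bases from its own Dusp10 start. Signal there was -0.88 and -0.93 in LSD1i, against -2.66 and -2.04 in Vehicle. LSD1i minus Vehicle was 1.45 ± 0.30 (SE, 10 libraries), a 2.73-fold difference.

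Combo lay between them at -1.44 and -1.77, above all other libraries with a peak. CER had -2.84 and -2.15, 6MP replicate 1 had -2.12 and Day0 replicate 1 had -2.55, while 6MP replicate 2 and Day0 replicate 2 had no called peak. The region is thus weak in every group, below the typical shared peak.

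Dusp7 -11.9 kb was listed as opened in LSD1i with a fold of 0.58 in the authors' deposited table. A called peak was present there in LSD1i replicates 1 and 2 and Day0 replicate 1 only. Dusp1 +5.3 kb, already higher in Vehicle than in Day0, was listed as opened again in LSD1i, with 1.59 and 1.35 in LSD1i, against 0.88 and 1.13 in Vehicle.

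The third comparison concerns the 3 drugs together. In the authors' deposited table, 2 regions of the family were listed as opened in Combo against Vehicle, Dusp10 -54.4 kb (fold 0.80) and Dusp1 +10.7 kb (0.76), and 0 as closed under the 8 symbols. Of 53239 regions tested (inferred), 12.8% were opened and 2.15% closed. Another 2 regions of these loci were listed as closed under other symbols, Dusp2 +2.0 kb under Astl (-0.64) and Dusp16 +39.0 kb under Gm36328 (-0.73). In LSD1i the authors' deposited table gives -0.87 and -1.09 at the same places. Both Combo libraries were higher than both Vehicle libraries at 5 of 29 regions and lower at 11, beside 20.1% and 35.8% of all regions, and the promoters differed by -0.25 ± 0.19 (Dusp6) to -0.02 ± 0.16 (Dusp16, SE).

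Dusp1 +10.7 kb (chr17:26497278-26498130) lies downstream of the gene. Signal was 1.56 and 1.41 in Combo, 1.70 and 1.39 in LSD1i, 1.22 and 1.31 in CER, 0.85 and 1.12 in 6MP, 0.76 and 1.08 in Vehicle and 0.74 and 0.93 in Day0. All 4 libraries with the LSD1 inhibitor stood above all 8 others, the highest of which was CER replicate 2. The difference from Vehicle was 0.57 ± 0.15 in Combo and 0.62 ± 0.15 in LSD1i (SE), and these 2 comparisons share the Vehicle libraries. It was the only 1 of the family's 22 shared regions with this order, which 5.12% of all shared regions had.

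Dusp2 +2.0 kb (chr2:127337772-127338663) showed the opposite order. The region covers the 3′ end of Dusp2, a nuclear phosphatase of activated haematopoietic cells, and also the start of the neighbouring gene Astl, so it cannot be assigned to either. Signal was 0.39 and 0.32 in Combo, 0.84 and 0.57 in LSD1i, 1.13 and 0.93 in CER, 0.98 and 1.16 in 6MP, 1.20 and 1.29 in Vehicle and 1.02 and 1.12 in Day0.

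The 4 libraries with the LSD1 inhibitor were the lowest, as at 5.72% of shared regions. Combo minus Vehicle was -0.89 ± 0.14 (SE), and -0.90 and -0.88 within the libraries whose names have no suffix and the suffix R. LSD1i minus Vehicle was -0.54 ± 0.14. Further on, inside Astl, the region Dusp2 +10.3 kb had a called peak in the 4 LSD1i and Combo libraries (signal -1.23 and -1.50 in Combo, -1.54 and -1.24 in LSD1i) and in none of the other 8. Over all regions, 690 of 73147 (0.943%) had that pattern.

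**Figure D3:**
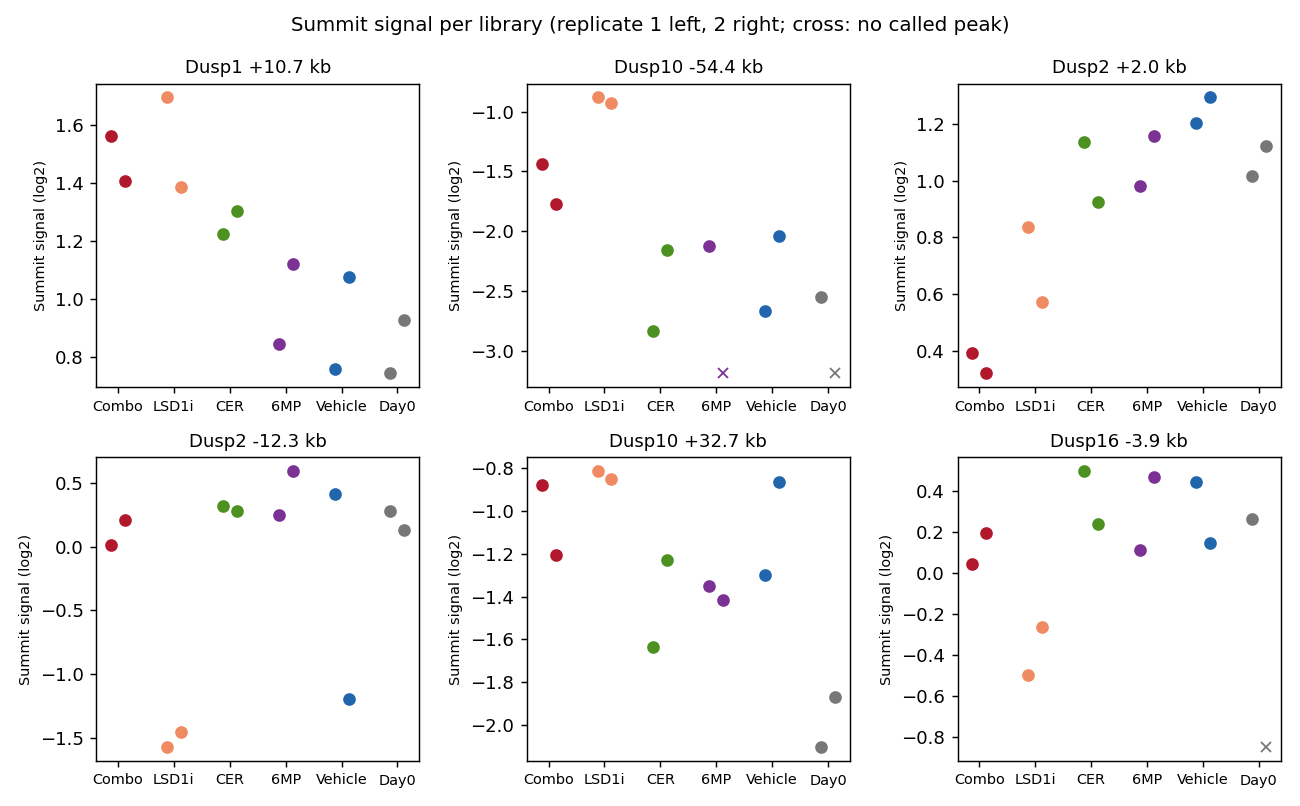
Summit signal (y axis, log2 relative to the library median) at 6 regions by group (x axis), with replicate 1 left and replicate 2 right and a cross where no peak was called. Combo and LSD1i are highest at Dusp1 +10.7 kb and Dusp10 -54.4 kb and lowest at Dusp2 +2.0 kb, while Dusp2 -12.3 kb splits the Vehicle replicates.

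Genes whose regions followed Dusp2 +2.0 kb most closely were looked up over the 33366 other shared regions. Across the 12 libraries Pearson's r was 0.97 for a region near Qrfp, 0.97 near Gm10614, and 0.96 near Gm51449, Pan2 and Lyl1. The last lies 112421 bases from its nearest gene start. These are the extremes of many correlations over 12 libraries and are given as a description.

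With cerulenin alone, 0 regions of the family were listed as opened and 0 as closed in the authors' deposited table. Of 47782 tested regions (inferred), 0.00628% were opened and 0.354% closed. In the summit signal, CER minus Vehicle was between -0.15 ± 0.21 (Dusp1) and 0.26 ± 0.15 (Dusp16, SE) at the promoters. Away from them, Dusp1 +10.7 kb stood at 0.35 ± 0.15 and Dusp16 +36.4 kb at -0.52 ± 0.26. Both CER libraries were higher than both Vehicle libraries at 5 of 25 regions and lower at 5, beside 24.3% and 18.7% of all regions.

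Combo and LSD1i were compared with each other, a contrast that no deposited table gives. At a Benjamini-Hochberg adjusted p under 0.05, limma called 49 of 43669 regions (0.112%), 39 higher (0.0893%) and 10 lower (0.0229%) in Combo. Scaled by depth without centring, which shifts this contrast by 0.38, the calls were 138 higher and 0 lower. No region was called without LSD1i replicate 1, LSD1i replicate 2 or Combo replicate 2. Of the family's 29 regions with a peak in all 4 libraries, 1 was called, Dusp2 -12.3 kb (chr2:127322471-127323974). The table listing LSD1i against Vehicle had brought this region into the family through its low LSD1i values, and the same LSD1i libraries enter this test.

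At Dusp2 -12.3 kb, signal was 0.02 and 0.21 in Combo, against -1.57 and -1.45 in LSD1i. The difference was 1.63 ± 0.26 (SE), which is 3.09-fold, with a limma adjusted p of 0.0144 over 12 libraries. Leaving out LSD1i replicate 1 gave 1.57 with an adjusted p of 0.192 in limma, leaving out LSD1i replicate 2 gave 1.69 with 0.0600, and leaving out Combo replicate 2 gave 1.53 with 0.0945. Other groups lay at 0.32 and 0.28 in CER, 0.25 and 0.59 in 6MP and 0.28 and 0.13 in Day0.

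Vehicle was split at this region, with 0.41 in replicate 1 and -1.20 in replicate 2, so by the highest listed summit 3 libraries were low and 9 high. LSD1i minus Vehicle, -1.12 ± 0.26 (SE), became -1.93 without Vehicle replicate 2 and -0.31 without Vehicle replicate 1. Combo minus Vehicle, 0.51 ± 0.26, became -0.30 and 1.31. This is the only 1 of 33367 shared regions where these 3 libraries lie at least 1 log2 unit below the other 9. The 3 libraries and the gap were taken from this region's own values, so that count is a description and no support.

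The peak shapes show where the 9 libraries differ from the 3. In the 9, the highest summit lies within 200 bases of the gene-side end of the region, with a pileup of 162 and 190 fragments in Combo, 179 and 108 in CER, 88 and 157 in 6MP, 177 in Vehicle replicate 1 and 157 and 80 in Day0. No summit was called there in LSD1i or in Vehicle replicate 2. The called peak ended 586 and 541 bases before that end in LSD1i, so this place lay outside it. In Vehicle replicate 2 the called peak ended 46 bases before the end and covered the place, but no summit is listed in it. Pileup is known at listed summits only, so the height at that place in Vehicle replicate 2 is unknown and its signal of -1.20 belongs to another summit. At the other summits of the region, signal was -1.42 and -1.04 in Combo, -1.57 and -1.45 in LSD1i and -0.43 and -1.20 in Vehicle. The 3 libraries share names without a suffix, but so do Combo replicate 1, CER replicate 2 and 6MP replicate 1, which had the summit. What sets the 3 libraries apart was not tested.

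**Figure D4:**
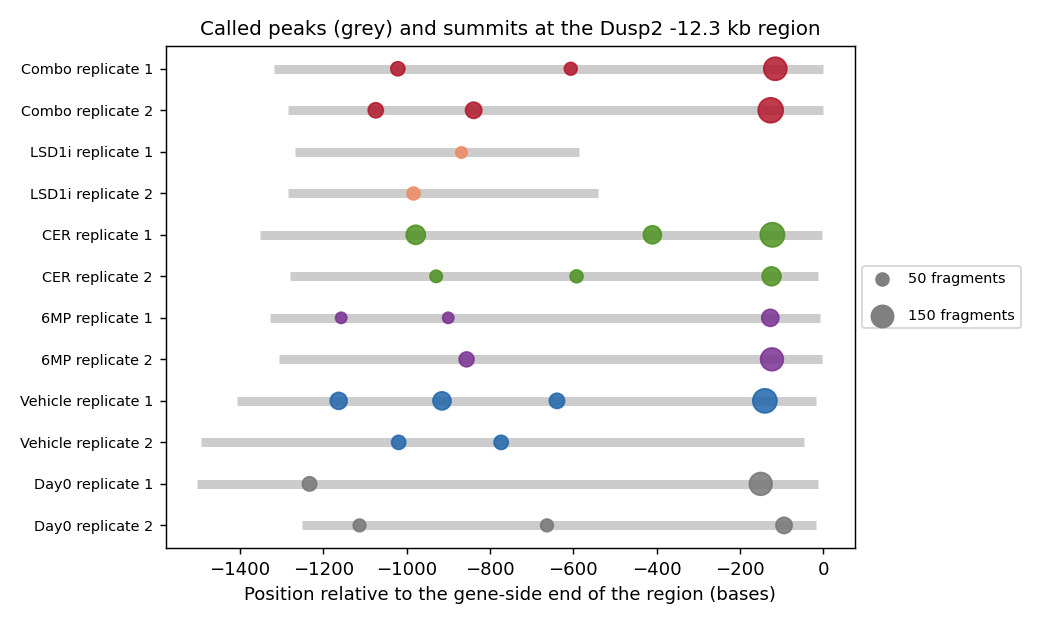
Called peaks (grey bars) and their summits (circles, area by fragment pileup) at Dusp2 -12.3 kb in each library (y axis), by position in bases from the gene-side end of the region (x axis). LSD1i replicates 1 and 2 and Vehicle replicate 2 lack the summit near the right end that the other 9 libraries share.

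Next in size was Dusp1 -6.4 kb, with -0.14 and 0.03 in Combo, against -0.86 and -0.78 in LSD1i. The difference of 0.76 ± 0.18 (SE) had a limma adjusted p of 0.0694 and did not pass. Both Combo libraries were also higher than both LSD1i libraries at Dusp16 -3.9 kb (0.50 ± 0.16, adjusted p = 0.205, limma, 11 libraries) and at Dusp7 -7.3 kb (0.58 ± 0.24, adjusted p = 0.349). They were lower at Dusp10 -54.4 kb (-0.70 ± 0.29, adjusted p = 0.368, limma, 10 libraries) and at Dusp2 +2.0 kb (-0.35 ± 0.14, adjusted p = 0.342), where scaling by depth alone turns the difference to 0.03. Its listing as opened in LSD1i and Combo had brought Dusp10 -54.4 kb into the family, and the same libraries enter this test. Dusp1 -6.4 kb, Dusp16 -3.9 kb and Dusp7 -7.3 kb were listed as closed in LSD1i against Vehicle. Those LSD1i libraries enter the tests of these regions too.

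All 8 promoters lay close to 0 in this contrast, between -0.10 ± 0.15 (Dusp4) and 0.17 ± 0.16 (Dusp16, SE). At 7 of the 29 regions the unadjusted limma p was under 0.05, beside 4728 of all 43669 regions. Among the 7 are Dusp2 -12.3 kb, Dusp1 -6.4 kb, Dusp16 -3.9 kb, Dusp7 -7.3 kb and Dusp10 -54.4 kb. Each of these was listed for the family in LSD1i against Vehicle, and the same LSD1i libraries enter this test. The groups did not overlap at 6 regions that were higher and 6 that were lower in Combo, where 18.4% and 28.9% of all regions did so. The family's median difference was -0.05, and -0.04 over all regions.

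**Figure D5:**
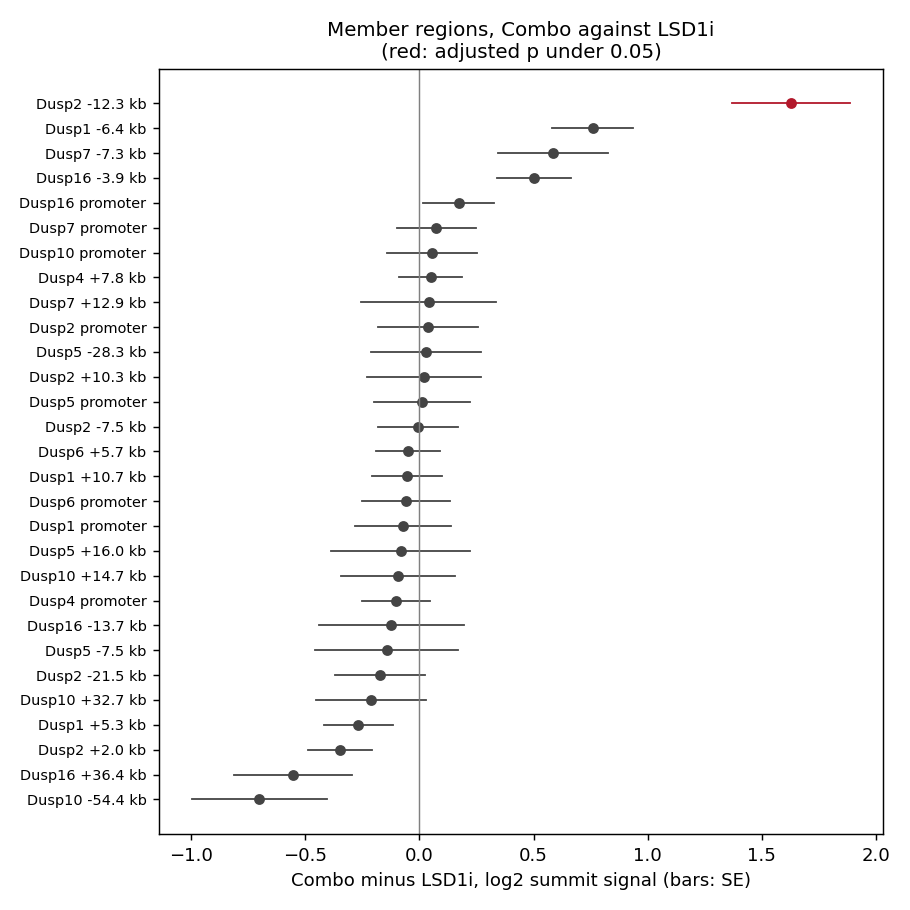
Combo minus LSD1i difference in log2 summit signal (x axis, points with SE bars) at the 29 regions with a called peak in all 4 libraries (y axis). The 1 region in red, Dusp2 -12.3 kb at 1.63, passed an adjusted p of 0.05 in limma.

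Mercaptopurine alone was the other contrast open to a test, although it shares the Vehicle libraries with the tables. Of 37143 regions limma passed 0 (0.0%), while 1883 had an unadjusted p below 0.05, and of the family's 26 regions it passed 0. Both 6MP libraries were higher than both Vehicle libraries at 0 of the 26 and lower at 4, beside 12.7% and 9.95% of all regions. The only 1 with an unadjusted p under 0.05 was Dusp2 -12.3 kb, at 0.25 and 0.59 in 6MP, against 0.41 and -1.20 in Vehicle. The 6MP minus Vehicle difference there, 0.82 ± 0.25 (SE, adjusted p = 0.628, limma), was 0.01 without Vehicle replicate 2. Without Vehicle replicate 1 it was 1.62, which sets the gene-side summit of 6MP against another summit of Vehicle replicate 2. At the summits away from that end, 6MP had -0.96 and -0.63, against -0.43 and -1.20 in Vehicle. The promoters differed by -0.18 ± 0.21 (Dusp5) to 0.05 ± 0.15 (Dusp4, SE).

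The wider pathway was described through lists of related genes, by the symbol that the authors' deposited tables give. These counts stand beside the shares of all 21900 protein-coding genes, including those with no open region, that held a listed region. The shares were 6.16% opened and 41.7% closed in LSD1i, and 10.9% opened and 3.05% closed in Combo. Nothing particular to a list is read from its count, since the number of regions per gene was not taken into account. All 3 other typical family members (Dusp8, Dusp9 and Styxl1) were looked up, and 2 held regions closed in LSD1i, led by Dusp9 (-1.15 in the authors' deposited table). Of 11 atypical dual-specificity phosphatases, 1 held opened and 4 closed regions in LSD1i, and 1 and 0 in Combo. That 1 was Dusp22, which acts in JNK signalling, with folds of 2.89 and 2.87 in Combo and 2.1 and 1.63 in LSD1i, in the authors' deposited tables.

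Sprouty and Spred proteins restrain Ras to ERK signalling. Of the 7 genes, 3 held opened and 1 closed regions in Combo, and 1 and 3 in LSD1i. Spry2 led with 1.93 in Combo and 1.22 in LSD1i, and Spred1 had 1.38 in Combo, all in the authors' deposited tables. Of the MAP kinase genes themselves, 1 of 12 held opened and 6 closed regions in LSD1i, and 1 and 0 in Combo.

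All 7 MAP kinase kinase genes held closed regions in LSD1i and 1 an opened one, Map2k5, which activates ERK5, with folds of 1.12 and -1.23 at different introns in the authors' deposited table. In Combo 2 of the 7 held opened and 1 closed regions. Ras and Raf pathway genes held closed regions at 6 of 10 in LSD1i, with 0 opened, and opened and closed ones at 1 each in Combo. Of 12 immediate early genes that ERK induces, 12 held closed and 0 opened regions in LSD1i, and 2 closed and 0 opened in Combo. Phlda1 was the lowest in LSD1i (-0.90 in the authors' deposited table) and had -0.59 in Combo, and Egr2 had -0.77 in Combo. Against Day0, Vehicle held opened regions at Fos (0.28 and 0.26), and CER against Vehicle held closed ones at Mapk11 (-1.34) and Spred2 (-1.12), in the authors' deposited tables. Over all listed regions the median fold was -0.45 in LSD1i and 0.89 in Combo. With limma, 0 regions of these lists passed in Combo against LSD1i or in 6MP against Vehicle.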

How the data were processed

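ATAC-seq peak lists of 12 mouse libraries and 4 annotated comparison tables were used. Per the submitters' processing notes, the tools named, without their roles, are Trimmomatic 0.38, MACS2 2.1.2, DiffBind, Picard 2.18.26, SAMtools 1.9 and Bowtie2, with mm10 as the build. Their settings are not given in the sources used here. Each deposited peak list gives, per summit, a score in whole numbers, the ratio (fold) over local background, and the −log10 of its p-value and q-value. The deposited tables give log2 levels and folds with a p-value and FDR of 0.05 or less, by the authors. Their scaling is not stated. The authors' table for 6MP was not used here.

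Fragment pileup and background were solved from fold and p-value, and 100% of summits came out whole within 0.001. Peaks ran from 42651 to 56398 per library, background from 2.44 to 4.55 fragments per position, and median pileup from 50 to 75. Read totals were not used here, and low pileups limit precision at weak regions. Summit signal was tested with limma 3.58.1 (R 4.3.3) in a 6-group fit on all 12 libraries with a mean-dependent prior variance, on regions with a peak in all 4 libraries of a contrast, adjusted by Benjamini-Hochberg over all of them. Libraries without a peak at a region were dropped there. The procedure was tested on simulated data. An exact test of 2 libraries against 2 cannot give a p under 0.333.

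The family, its gene lists and the tests were chosen with earlier results of these data known. Regions named for each gene are the promoter, the listed region of largest fold and any region past 0.05 in a tested contrast, and for pathway lists up to 4 genes of largest fold. Further regions (Dusp1 +5.3 kb and -6.4 kb, Dusp2 +2.0 kb and +10.3 kb, Dusp7 -7.3 kb and others) were named after their values were seen. The nearest region inside the 10 kb window edge lay 8.56 kb from Dusp16 (mean signal -2.58), and the nearest outside it 10.4 kb from Dusp7 (-2.08). Alternatives changed the centring, filters, libraries, pairing and name suffix.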

Additional observations from a re-analysis of the deposited data

Results flagged for a closer look

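The Combo minus LSD1i difference at Dusp2 -12.3 kb, 1.63 ± 0.26 (SE, limma adjusted p = 0.0144), is listed because the effects of 2 drug groups that share the LSD1 inhibitor differed by a test of the difference itself. Low LSD1i values had brought the region into the family and the same libraries enter the test, so the p is no independent support. The adjusted p in limma was 0.192 without LSD1i replicate 1, 0.0600 without LSD1i replicate 2 and 0.0945 without Combo replicate 2. The signal is read at different summits: at those away from the gene-side end, Combo had -1.42 and -1.04, against -1.57 and -1.45 in LSD1i. In Vehicle replicate 2 (-1.20, also from another summit) the height at the gene-side place is unknown.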

How the results depend on the processing

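Without centring, differences shifted by 0.38 in Combo against LSD1i, -0.46 in 6MP against Vehicle, 0.21 in Vehicle against Day0, -0.16 in LSD1i, -0.29 in CER and 0.22 in Combo against Vehicle. Of 1012 settings tried over single regions, 910 kept the result, 93 moved it by at least 1 SE, 3 lost and 6 gained a call, and 0 turned a called sign. Fits on the 4 libraries alone, with other filters or with a replicate block leave the difference itself unchanged by design. Such settings could alter only a call, so part of the 910 was fixed in advance. In the comparisons given without a test, the margin for a move was wider than 1 SE.

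In the deposited tables, an FDR of 0.01 left 1 region opened in Vehicle against Day0 and 1 in LSD1i. An absolute log2 fold of at least 1 left 0 in Vehicle against Day0, 1 opened and 0 closed in LSD1i and 0 opened in Combo. Counting by 10 kb windows under any symbol gave 1 opened in LSD1i, and 1 opened and 2 closed in Combo.

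For Combo against LSD1i, the 49 calls (1 in the family) became 138 scaled by depth (all higher), 106 centred by intensity (2 in the family), 2289 with the 4 libraries alone (4) and 222 with the name suffix as a covariate (2), and 0 to 12 leaving out 1 library (0 to 1 in the family; 0 without LSD1i replicate 1, LSD1i replicate 2 or Combo replicate 2). The split of higher against lower calls was 39 to 10, 97 to 9 by intensity, 1266 to 1023 with 4 libraries, and 162 to 60 with the suffix. With a replicate block the calls were 104 (81 to 23) over 12 libraries and 2271 (1285 to 986) over 4, with 1 and 4 in the family. Same-numbered libraries did not deviate together (r = -0.035), so the numbers were not taken as pairs. In the 4-library fits, Dusp10 -54.4 kb (adjusted p = 0.0256, limma) and Dusp16 -3.9 kb (0.0197) passed. Fewer libraries estimate the spread there. Its listing as opened in LSD1i and Combo had brought Dusp10 -54.4 kb into the family. Dusp16 -3.9 kb was named for its large fold in LSD1i against Vehicle, where it was listed as closed. The same LSD1i libraries enter both tests, so neither p is independent support.

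For 6MP against Vehicle, the 0 calls became 1 scaled by depth, 27 with the suffix (1 in the family, Dusp2 -12.3 kb) and 0 to 33 leaving out 1 library (0 to 1 in the family). The 33 came without Vehicle replicate 1, 9 without 6MP replicate 1 and 1 without Vehicle replicate 2. A replicate block gave 0, and so did crossed numbers, added after seeing r = -0.108. The causes were not tested. Called peaks per group moved within 1.5 times under each alternative. At regions whose pileup is near the smallest called, 10 to 14 fragments, counting error limits every difference.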
